A study of Mus musculus with 6 samples.

Results

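The 9 homeobox genes described here are Irx1, Irx2, Irx3, Irx4, Irx5, Pitx1, Lhx6, Meis1 and Meis2. They were found by matching the Ensembl identifiers of a raw count table to these symbols, which gave 9 of its 49315 genes. Lhx6 was selected on its higher counts in the treated libraries, so its values against fibroblasts are given as a description with no test. The other 8 genes were taken by family.

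The study followed the conversion of mouse skin fibroblasts towards cardiac progenitors by CRISPR activation, in which a Cas9 without cutting activity brings transcriptional activators to promoters. RNA sequencing covered 6 libraries, 2 in each of 3 groups, all from wild-type cells of tail-tip skin. Fibroblast libraries (day 0) carried control lentiviral vectors, and early libraries (day 7) carried CRISPR activation vectors of the SAM version. Late libraries (day 22) carried the same kind of vectors and came from isolated colonies. Time, vectors and colony isolation therefore cannot be told apart in a comparison of late cells with fibroblasts. The same holds for time and vectors between early cells and fibroblasts, and for time and colony isolation between late and early cells. The labels call early replicate 1 early reprogrammed and early replicate 2 partially reprogrammed. No target gene of the activation vectors, mouse strain or age is named in the labels.

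Homeobox genes encode transcription factors that bind short DNA motifs and assign regional identity during development. The Iroquois (Irx) genes lie in a pair of clusters, IrxA with Irx1, Irx2 and Irx4 and IrxB with Irx3, Irx5 and Irx6, and members of a cluster often share enhancers. Irx4 marks ventricular muscle of the heart, Irx3 and Irx5 are known for conduction and repolarization, Pitx1 for hindlimb identity, Lhx6 for jaw mesenchyme and forebrain interneurons, and Meis1 and Meis2 as partners of Pbx and Hox proteins.

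Promoter sequence was at hand for 6 of the 9 genes, from RefSeq windows on GRCm38.p6. The 250 bases before the annotated start are shown for 4 of them, Irx2 and Irx4 as neighbours in a cluster with unlike levels, Lhx6 as the gene with a level alike in all treated libraries, and Meis1 as a gene measured in every library. Stretches that GENCODE annotates as exon are left out, and capitals mark CG dinucleotides, the sites of CpG methylation in mammalian DNA. The last C of the Irx4 stretch belongs to a CG that reaches into the exon.
Irx2, chr13:72628570-72628819, plus strand: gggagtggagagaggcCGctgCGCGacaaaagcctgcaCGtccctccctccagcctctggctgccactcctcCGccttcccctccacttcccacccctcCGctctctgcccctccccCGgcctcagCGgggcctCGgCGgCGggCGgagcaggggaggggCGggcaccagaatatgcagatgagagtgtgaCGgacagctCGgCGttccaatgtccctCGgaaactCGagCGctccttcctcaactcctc
Irx4, chr13:73260247-73260478, plus strand: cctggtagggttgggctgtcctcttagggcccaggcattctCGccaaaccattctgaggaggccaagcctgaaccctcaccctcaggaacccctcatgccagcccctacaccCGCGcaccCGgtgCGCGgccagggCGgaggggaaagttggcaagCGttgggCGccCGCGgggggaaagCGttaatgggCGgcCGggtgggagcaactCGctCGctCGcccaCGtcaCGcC
Lhx6, chr2:36105409-36105658, minus strand: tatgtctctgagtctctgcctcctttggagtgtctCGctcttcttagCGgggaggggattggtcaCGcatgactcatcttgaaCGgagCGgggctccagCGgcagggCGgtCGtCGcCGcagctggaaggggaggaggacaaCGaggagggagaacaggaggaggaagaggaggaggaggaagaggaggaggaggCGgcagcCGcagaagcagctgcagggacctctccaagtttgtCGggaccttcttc
Meis1, chr11:19018986-19019219, minus strand: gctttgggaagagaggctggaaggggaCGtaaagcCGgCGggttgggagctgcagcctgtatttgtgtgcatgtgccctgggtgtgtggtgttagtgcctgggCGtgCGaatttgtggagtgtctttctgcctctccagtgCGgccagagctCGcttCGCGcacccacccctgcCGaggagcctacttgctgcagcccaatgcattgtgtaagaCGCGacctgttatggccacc

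Over the whole 250-base windows the Irx4 promoter held 22 CG dinucleotides, the Irx2 promoter 19, the Lhx6 window shown 14 and the Meis1 promoter 13, against a median of 6 over 32807 mouse promoter windows. Each of these 4 windows was thus richer in CG than the median window, with Irx4 at percentile 85.2 and Meis1 at percentile 68.5. RefSeq gives 3 windows for Lhx6, and the other 2, not shown, held 17 and 7. The windows of all 6 genes were searched on both strands for AGATAA (bound by zinc-finger factors of the GATA family, present in 9.99% of all windows), TGACAG (Meis proteins, 15.9%), TAATCC (Pitx proteins, 6.25%), TAATTA (LIM homeodomain proteins, 4.85%), ACATGT (Iroquois proteins, 4.58%) and TATAAA (the core of a TATA box, 12.4%). The only match was TATAAA in the Meis2 window, 152 bases before the annotated start. A match describes letters and not a bound site, and nothing follows for a factor from its absence in these windows.

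Libraries of a group did not resemble each other equally, and several of the values below rest on a single library. Total counts ran from 20172874 to 40122999. The groups' libraries correlated across genes at r = 0.978 for fibroblasts, 0.939 for early and 0.883 for late cells (Pearson, log2 CPM, where genes are not independent replicates). In late replicate 2, transcripts of the mitochondrial genome took 10.3% of counts, while the other 5 libraries had 1.48% to 2.16%. Summed over 10 heart muscle markers, its level was 51900 CPM (counts scaled to a common library size, by TMM) against 16.2 to 135 CPM elsewhere, with none of the 10 at 0 in any library, and its sum over 10 endothelial markers was 851 CPM against 7.3 to 28.4 CPM, with Emcn at 0 in early replicate 1 and late replicate 1 and Tie1 and Vwf at 0 in early replicate 1. Early replicates 1 and 2 differed in the sum of 10 fibroblast markers, at 2850 and 12300 CPM, with Lum the single marker at 0, in early replicate 1. Xist, a transcript of female cells, had 1625 and 1468 counts in fibroblast replicate 1 and late replicate 1 and 12 or fewer in the other 4 libraries. The sex of the cells may thus differ within the fibroblast and late groups, and between these groups and early cells. In bulk RNA, fewer cells of a type and less RNA per cell cannot be told apart. The labels do not tell the origin of replicates (culture or animal), and a p-value here measures just how these libraries spread, which may be technical.

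Of the 9 genes, 8 passed the filter on low counts, and Irx4 did not. Pitx1 and Lhx6 passed it only through their treated libraries. In the fit over all 16688 tested genes, Irx1 was the only one of 7 tested genes (Lhx6 left out) called between early cells and fibroblasts, where it fell. Of all tested genes, 1.53% were called in that comparison at an adjusted p under 0.05, and 0.833% were called as lower. The same 7 genes gave 0 calls between late cells and fibroblasts (edgeR adjusted p from 0.0608 to 0.708, with 4 at an unadjusted p under 0.05), where 1.42% of all tested genes were called. Between late and early cells 0 of 8 genes were called (edgeR adjusted p from 0.361 to 0.976, with 2 at an unadjusted p under 0.05), as were 0% of all tested genes, of which 1709 had an unadjusted p under 0.05. DESeq2 called 4, 3 and 2 of these genes in the 3 comparisons, beside 4201, 4683 and 930 of all genes.

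The libraries of the groups did not overlap for 6 of 7 genes between early cells and fibroblasts, for 6 of 7 between late cells and fibroblasts, and for 4 of 8 between late and early cells. Over all tested genes these shares were 66.7%, 68.5% and 33.7%, so the absence of overlap among 2 libraries against 2 was common. The median log2 fold change of the tested members was 0.40 in early cells and 0.91 in late cells against fibroblasts, beside 0.0038 and 0.11 over all genes. These medians hide opposite directions, since 4 members were higher and 3 lower than in fibroblasts in both comparisons. Both share the same fibroblast libraries, so they are not independent.

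**Figure D1:**
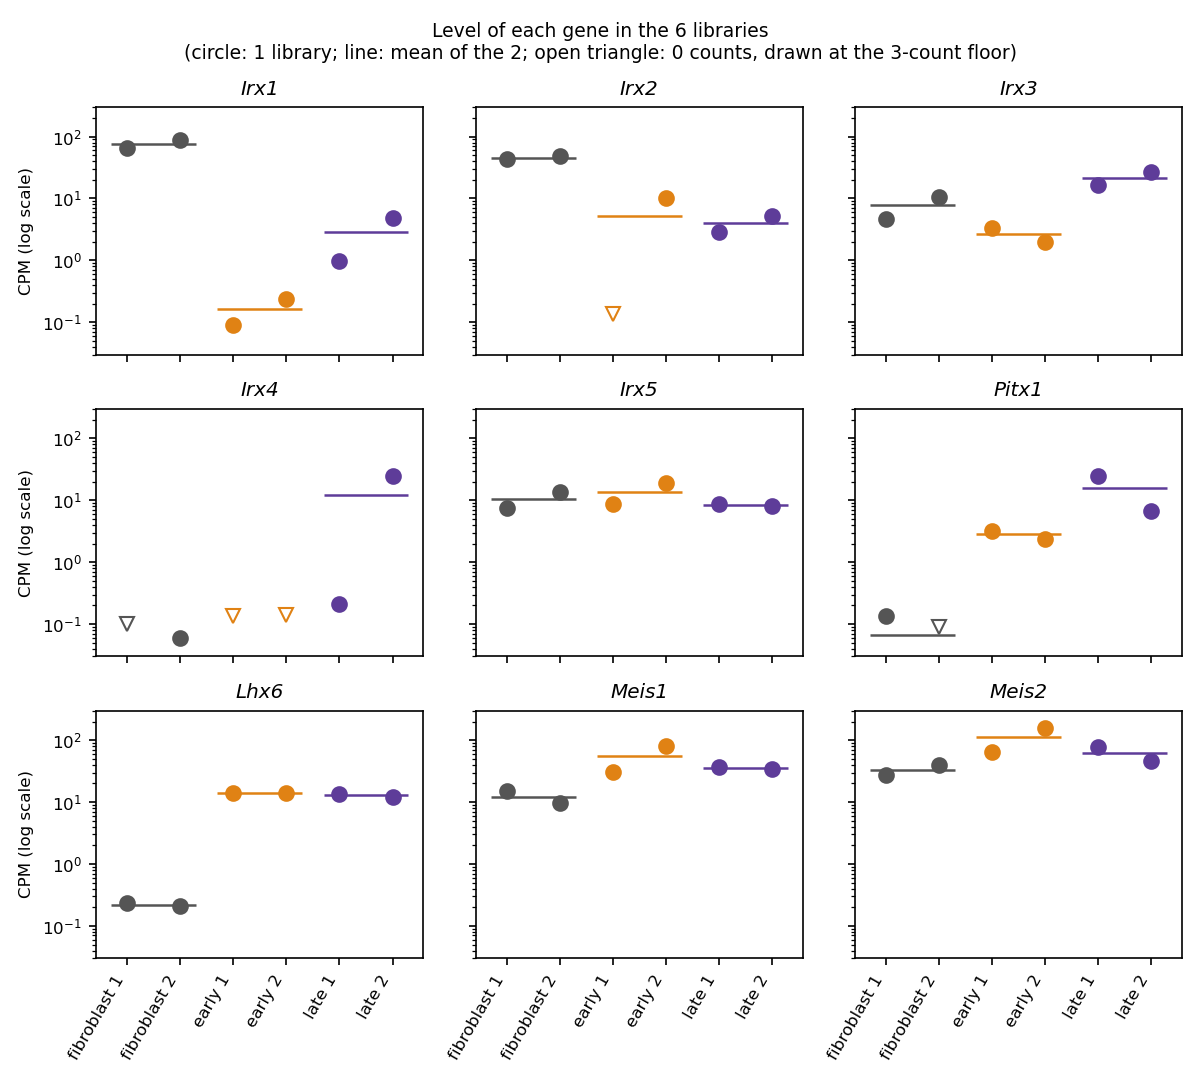
CPM of each of the 9 genes (log scale) in the 2 fibroblast, 2 early and 2 late libraries, with circles for single libraries, lines for means of 2 and open triangles for 0 counts drawn at the 3-count floor. Irx1 and Irx2 are highest in fibroblasts, Pitx1 and Lhx6 lowest there, and Irx4 exceeds 0.208 CPM only in late replicate 2, at 24.4 CPM.

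Irx1 (ENSMUSG00000060969, chr13:71957921-71963723, minus strand, GRCm38), an IrxA gene known from lung, kidney and digit development, was the most abundant member in fibroblasts per kilobase of exon. Its level was 64.4 and 88.3 CPM in fibroblasts, 0.0891 and 0.237 CPM in early cells and 0.959 and 4.8 CPM in late cells, from 1919 and 3001, 2 and 5, and 23 and 171 counts. All 4 treated libraries lay below both fibroblast libraries, and both late libraries lay above both early ones. Irx1 fell by 8.85 ± 1.1 (SE) on the log2 scale in early cells, a 460-fold difference (edgeR adjusted p = 0.0411, n = 2 against 2). The call was lost without fibroblast replicate 1 (edgeR adjusted p = 0.218) or 2 (0.234) and without early replicate 1 (0.133) or 2 (0.0685), fits that keep 1 library of a group and assume it to vary like the others, and adjusted p over all alternatives ran from 4.05e-17 to 0.234.

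In late cells the Irx1 log2 fold change against fibroblasts was -4.71 ± 0.87 (edgeR adjusted p = 0.0608), and from early to late cells it was 4.13 ± 0.97 (adjusted p = 0.377), neither past the threshold. DESeq2 called both differences (adjusted p = 4.85e-07 and 0.00144), as did edgeR without late replicate 1 (0.0366 and 0.0332). The largest adjusted p over the alternatives was 0.32 for the first and 0.703 for the second. The genes with the pattern most like that of Irx1 over the 6 libraries were Ebf1, L1cam and C1qtnf2, with root mean square differences of 0.51, 0.82 and 0.93 between centred log2 CPM among 12252 candidate genes. Ebf1, a transcription factor of B cell and adipocyte development, was at 83.2 and 100 CPM in fibroblasts, 0.356 and 0.426 CPM in early cells and 2.21 and 14.2 CPM in late cells.

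Irx2 (ENSMUSG00000001504, chr13:72628820-72634198, plus strand) is the neighbour of Irx1 in the IrxA cluster and is often expressed with it in embryonic tissue. It was at 42.7 and 47.7 CPM in fibroblasts, 0 and 10.3 CPM in early cells and 2.83 and 5.25 CPM in late cells, from 1273 and 1621, 0 and 217, and 68 and 187 counts. Both fibroblast libraries lay above all treated libraries, while early replicate 1 held 0 counts and early replicate 2 held more than either late library. A count of 0 in early replicate 1 allows up to 0.134 CPM, the level of 3 counts. The log2 fold change against fibroblasts was -3.14 ± 1.86 in early cells (edgeR adjusted p = 0.31) and -3.48 ± 1.88 in late cells (0.251), and from early to late cells it was -0.34 ± 1.73 (0.976).

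The spread between the early libraries was thus larger than the difference between early and late cells for Irx2. Without early replicate 2, which left the library with 0 counts, Irx2 passed the threshold between early cells and fibroblasts (edgeR adjusted p = 0.0209, against 0.7 at most over the alternatives). Between late cells and fibroblasts it passed without early replicate 1 (0.0348), without early replicate 2 (0.0311) and with only the 4 libraries compared (0.0313, and 0.561 at most over the alternatives). Matrix genes of fibroblasts, named after their values were seen, differed between the early libraries in the same direction. Col3a1, a fibrillar collagen, was at 17 CPM in early replicate 1 and 3890 CPM in early replicate 2. Dcn, a small matrix proteoglycan, was at 3.21 and 679 CPM, and Lum, its relative, at 0 and 102 CPM. In fibroblasts, where Irx2 was highest, these matrix genes lay below early replicate 2, with Col3a1 at 1080 and 1300 CPM and Dcn at 176 and 140 CPM. Of the same 10 fibroblast markers, Col1a1 differed less between the early libraries (1910 and 3450 CPM), and Twist1 was at 86.8 and 81 CPM. The part of the matrix genes in the Irx2 values was not tested.

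**Figure D2:**
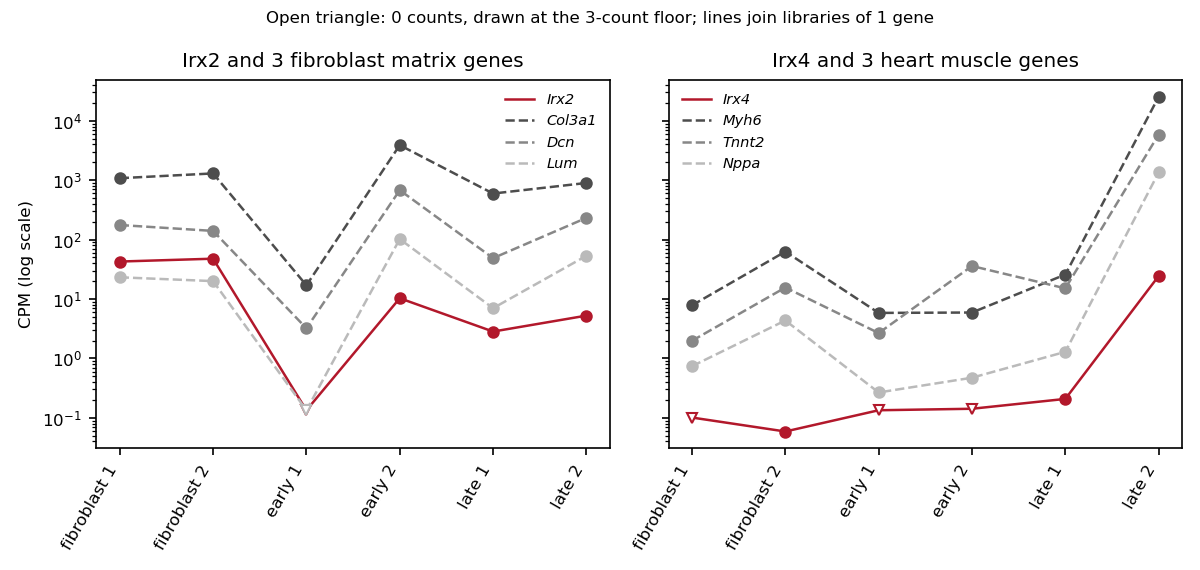
CPM (log scale) in the 6 libraries of Irx2 with the fibroblast matrix genes Col3a1, Dcn and Lum (left) and of Irx4 with the heart muscle genes Myh6, Tnnt2 and Nppa (right), with open triangles for 0 counts drawn at the 3-count floor. Irx2 and the matrix genes are lowest in early replicate 1, and Irx4 and the heart muscle genes are highest in late replicate 2.

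The genes most like Irx2 over the 6 libraries were Fmod, a collagen-binding proteoglycan, Dpt, a dermal matrix protein, and Aff3, with root mean square differences of 0.98, 1.04 and 1.12. Fmod was at 10.5 and 57.4 CPM in fibroblasts, 0.0891 and 7.9 CPM in early cells and 2.46 and 6.82 CPM in late cells. The lincRNA Gm20554 starts 0.256 kb from Irx2 on the opposite strand, and had 39 and 39 counts in fibroblasts, 0 and 5 in early cells and 4 and 1 in late cells. Its log2 fold change was -3.35 in early cells (edgeR adjusted p = 0.163) and -3.7 in late cells (0.129). Irx1 and Irx2 differed from each other by 2.15 on the same scale, and in early replicate 2 Irx1 had 5 counts and Irx2 had 217.

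Irx4 (ENSMUSG00000021604, chr13:73260479-73269608, plus strand), the IrxA gene of heart ventricles, was measured at more than a few counts in a single library. It had 0 and 2 counts in fibroblasts, 0 and 0 in early cells and 5 and 868 in late cells, or 0 and 0.0588 CPM, 0 and 0 CPM, and 0.208 and 24.4 CPM. Late replicate 2 thus held all but 5 of the 873 late counts. The ratio of late to fibroblast counts, scaled to library size, was 467, with an exact 95% interval from 129 to 3860 that covers counting error only. Against the early libraries, with 0 counts, the exact 95% interval of the same ratio began at 173. For late replicate 1 alone, 5 counts stood against 2 in fibroblasts and 0 in early cells.

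Irx4 failed the filter on low counts and is not among the tested genes counted above. With no filter its log2 fold change of 8.43 between late cells and fibroblasts gave an edgeR adjusted p of 0.42. Without late replicate 1 it passed the filter and the threshold (log2 fold change 9.35, adjusted p = 0.0469) in a fit that rests on late replicate 2 alone, and over the other fits that kept it the adjusted p ran from 0.144 to 0.426. Irx4 was highest in the library with the highest heart muscle transcripts, late replicate 2. Endothelial markers (851 CPM summed) and 8 fat markers were highest there too. The fat markers summed to 335 CPM there and 6.77 to 12.9 CPM elsewhere, with 2 to 4 of them at 0 in each other library. The part of any of these in the Irx4 level was not tested. Myh6, the alpha myosin heavy chain of heart muscle, was at 7.82 and 62.8 CPM in fibroblasts, 5.83 and 5.92 CPM in early cells and 25.8 and 25400 CPM in late cells. Late replicate 2 had 868 counts of Irx4 beside 903048 of Myh6, fibroblast replicate 2 had 2 beside 2134, and late replicate 1 had 5 beside 618. The nearest gene on the higher side, Ndufs6 at 50.2 kb, a subunit of mitochondrial complex I, was at 178 CPM in late replicate 2 and 34.4 to 40.1 CPM elsewhere.

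Genes of ventricular and atrial identity, conduction and repolarization formed a list of 13, of which 12 passed the filter. Of these, 0 were called in any of the comparisons, against 1.53%, 1.42% and 0% of all genes. Their summed level was 6290 CPM in late replicate 2 and between 221 and 1450 CPM in the other 5 libraries, with the fibroblast sums made up mostly of Gja1. Myl2, the ventricular myosin light chain, was at 3450 CPM in late replicate 2 and at most 10.6 CPM elsewhere. Kcnd2, the potassium channel gene known as a target of Irx5 repression in heart muscle, was at 15.5 CPM there and at most 1.56 CPM elsewhere. Of the list's atrial genes, Nppa and Myl7 were at 1350 and 385 CPM in late replicate 2 and at most 4.35 and 0.941 CPM elsewhere. Nr2f1 and Nr2f2, also known from atria, were at 29.9 and 53.4 CPM there, below late replicate 1 (60.8 and 100 CPM). Hey2, a ventricular gene of the list, was at 2.3 CPM in late replicate 2, below fibroblast replicate 2 (4.12 CPM). All these genes were named after their values were seen, and late replicate 1 held 3.46 CPM of Myl2 and 0.125 CPM of Kcnd2.

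Irx3 (ENSMUSG00000031734, chr8:91798525-91802067, minus strand), an IrxB gene expressed in the conduction system of the heart, was highest in the late libraries. Its level was 4.7 and 10.7 CPM in fibroblasts, 3.3 and 1.94 CPM in early cells and 16.3 and 26.8 CPM in late cells, from 140 and 364, 74 and 41, and 392 and 955 counts. The 3 groups did not overlap, with early cells lowest and late cells highest. The log2 fold change was -1.56 ± 0.58 from fibroblasts to early cells (edgeR adjusted p = 0.153), 1.49 ± 0.58 from fibroblasts to late cells (0.148) and 3.04 ± 0.61 from early to late cells (0.361), so none passed the threshold. The last difference, 8.23-fold, was called by DESeq2 (adjusted p = 0.000149) and by edgeR with no filter (0.0108), and its adjusted p ran up to 0.703.

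The antisense gene Irx3os overlaps Irx3, and because the strand setting of the counting is not given, reads of the pair cannot be told apart. Irx3os had 4 and 3 counts in fibroblasts, 2 and 1 in early cells and 17 and 31 in late cells, far fewer than Irx3, with a log2 fold change of 2.79 between late cells and fibroblasts (edgeR adjusted p = 0.0694). Fto, the nearest protein-coding gene on the lower side at 130 kb, was at 132 and 162 CPM in fibroblasts and between 112 and 121 CPM in the treated libraries. The patterns most like that of Irx3 belonged to Smagp, Icosl and Tmem136, with root mean square differences of 0.38, 0.48 and 0.51. Smagp, a small transmembrane protein of epithelia, was at 0.537 and 1.47 CPM in fibroblasts, 0.401 and 0.331 CPM in early cells and 2.54 and 7.36 CPM in late cells.

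Irx5 (ENSMUSG00000031737, chr8:92357625-92376286, plus strand), the neighbour of Irx3 in the IrxB cluster and a repressor of repolarizing currents in ventricular muscle, varied least between groups among the Irx genes. It was at 7.52 and 13.4 CPM in fibroblasts, 8.55 and 19 CPM in early cells and 8.8 and 8.17 CPM in late cells. All 3 groups overlapped. Its log2 fold change was 0.40 ± 0.53 in early cells (edgeR adjusted p = 0.653) and -0.30 ± 0.53 in late cells (0.708) against fibroblasts, and -0.70 ± 0.53 from early to late cells (0.7). The sign changed without early replicate 2 in the first comparison (-0.25) and without fibroblast replicate 2 in the second (0.16). Crnde, a noncoding gene that starts 1.5 kb away on the opposite strand, was at 1.44 and 1.62 CPM in fibroblasts, 2.05 and 4.07 CPM in early cells and 3.58 and 3.57 CPM in late cells (edgeR adjusted p = 0.288 and 0.194 against fibroblasts). Gpr63, Anks3 and Ifngr1 had the patterns most like that of Irx5 (0.11, 0.15 and 0.16).

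Set side by side as CPM per kilobase of exon, the make-up of the Irx family differed between the groups. IrxA genes made up 90.1% and 85.5% of the summed Irx level in fibroblasts, with Irx1 alone at 58.9% and 59.7%. In early cells the IrxB share was 99.2% in replicate 1 and 68.2% in replicate 2, mostly Irx5 (68.1% and 60%), with Irx2 holding 30.9% in replicate 2. In late replicate 1 the IrxB share was 87.1%, with Irx3 at 58.5%. In late replicate 2 it was 49.1%, and Irx4 held 37.2%. The summed level was 41.7 and 56.4 CPM per kb in fibroblasts, 4.02 and 10.1 in early cells and 10.1 and 25.1 in late cells, so the family as a whole was lower in all 4 treated libraries. Irx6, the remaining IrxB gene, had at most 9 counts in any library. These shares were not tested.

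**Figure D3:**
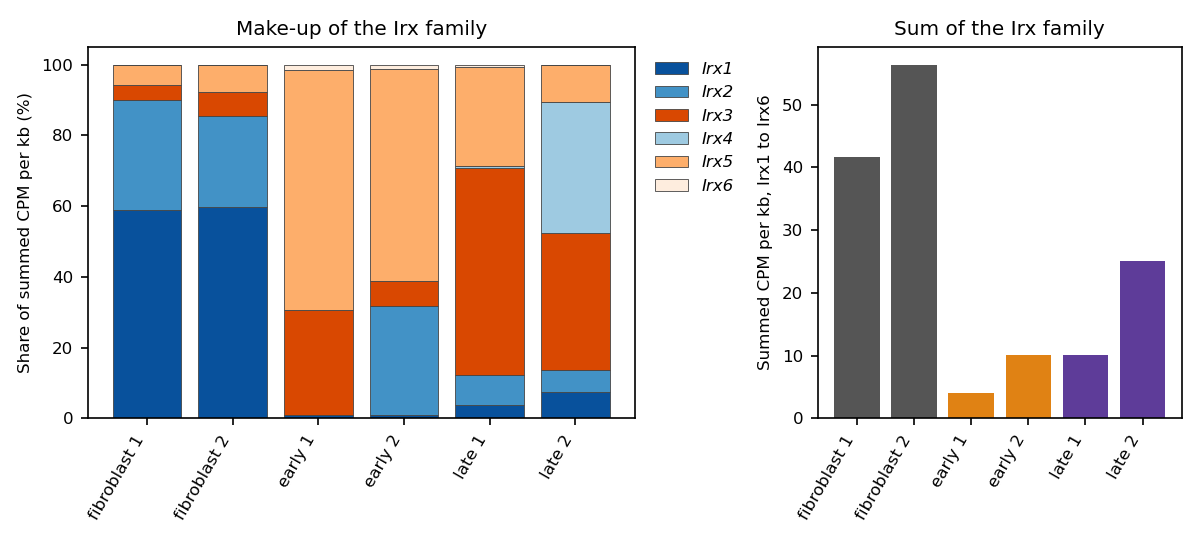
Share of each Irx gene in the summed Irx level, in percent of CPM per kb of exon (left, stacked bars), and that sum in CPM per kb (right, bars), for each of the 6 libraries. Irx1 and Irx2 (blue) make up 85.5% or more in fibroblasts, Irx5 and Irx3 (orange) most of the sum in early replicates 1 and 2 and late replicate 1, and Irx4 37.2% in late replicate 2.

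Pitx1 (ENSMUSG00000021506, chr13:55825051-55836192, minus strand), a paired-type factor that directs hindlimb and jaw development, was near the floor in fibroblasts and measured in all treated libraries. It had 4 and 0 counts in fibroblasts, 72 and 51 in early cells and 592 and 237 in late cells, or 0.134 and 0 CPM, 3.21 and 2.41 CPM, and 24.7 and 6.66 CPM. The 3 groups did not overlap, with late cells above early cells and early cells above fibroblasts, and late replicate 1 held 3.71 times the level of late replicate 2. Its log2 fold change against fibroblasts was 5.35 ± 1.35 in early cells (edgeR adjusted p = 0.0819) and 7.82 ± 1.46 in late cells (0.061), and 2.48 ± 1.09 from early to late cells (0.529). The ratio of counts to fibroblasts, scaled to library size, was 45 in early cells (exact 95% interval 17.1 to 168, counting error only) and 222 in late cells (86.3 to 816).

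In the main fit Pitx1 passed the filter only through its treated libraries. That test against fibroblasts is therefore not independent of the higher counts there. Both differences of Pitx1 from fibroblasts passed the threshold in DESeq2 (adjusted p = 9.83e-05 and 2.13e-09) and in edgeR with no filter on low counts (0.0203 and 0.00418). Without fibroblast replicate 2 the edgeR adjusted p was 0.36 and 0.309, the highest over the alternatives. The adjacent genes on both sides, Catsper3 at 16.1 kb and H2afy at 237 kb, were at 0.647 CPM or less and at 110 to 182 CPM. Cyp2s1, a cytochrome P450 of epithelia, Ntrk3, a neurotrophin receptor, and Smoc1 had the patterns most like that of Pitx1, with root mean square differences of 0.53, 0.68 and 0.82. Cyp2s1 was at 0.235 and 0.176 CPM in fibroblasts, 7.39 and 2.65 CPM in early cells and 54.5 and 10.9 CPM in late cells, and so shared the higher value in late replicate 1.

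Of 6 relatives of Pitx1 and genes of hindlimb and posterior identity, 5 passed the filter and 0 were called in any comparison. Of all tested genes, 1.53% and 1.42% were called in early and late cells against fibroblasts, and 0% between late and early cells. Named after its values were seen, Tbx4 was also highest in late replicate 1. Tbx4, the hindlimb T-box gene known to act downstream of Pitx1, was at 0.671 and 0.412 CPM in fibroblasts, 0.223 and 0.142 CPM in early cells and 27.8 and 8.65 CPM in late cells. The late log2 fold change of Tbx4 was 5.06 ± 0.81 (edgeR adjusted p = 0.0556). Hoxc10 and Hoxc11, Hox genes of the lumbar and hindlimb level, were at 29.5 CPM or more in both fibroblast libraries and at 12.8 CPM or less in all treated libraries (edgeR adjusted p from 0.0594 to 0.148 against fibroblasts).

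**Figure D4:**
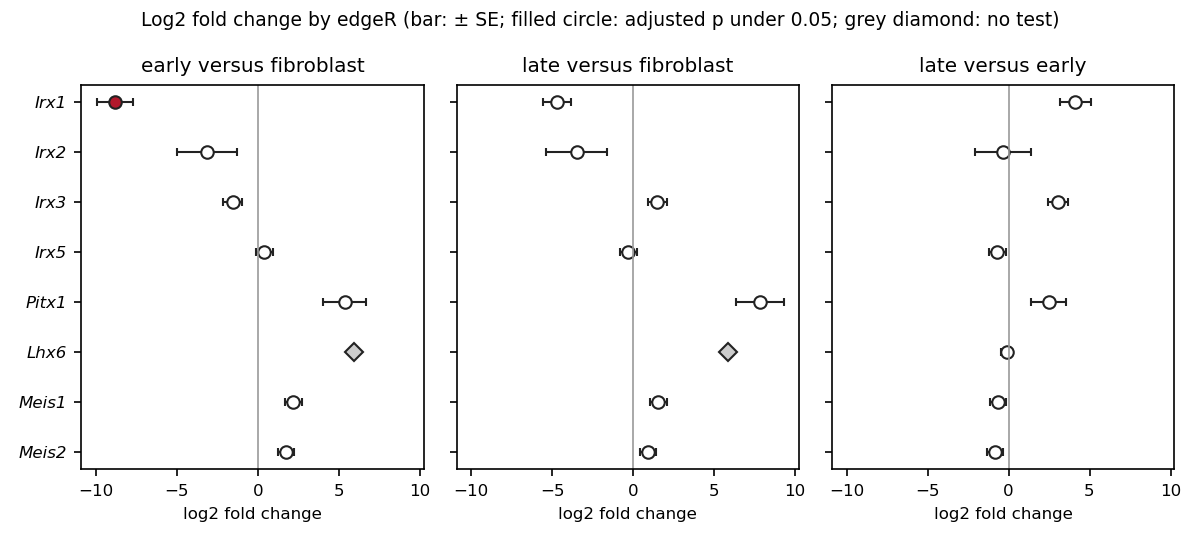
Log2 fold change by edgeR (x axis, circles, with bars of ± 1 SE) of the 8 tested genes in the 3 comparisons, with filled circles for an adjusted p under 0.05 and grey diamonds for Lhx6 against fibroblasts, which was chosen by that difference and not tested. Only Irx1 in early cells is filled, and Irx2 has the widest bars of the 8 genes.

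Lhx6 (ENSMUSG00000026890, chr2:36081953-36105408, minus strand), a LIM-homeodomain factor of jaw and tooth mesenchyme and of cortical interneurons, was near the floor in fibroblasts and at like levels in all 4 treated libraries. It had 7 and 7 counts in fibroblasts, 313 and 294 in early cells and 328 and 431 in late cells, or 0.235 and 0.206 CPM, 13.9 and 13.9 CPM, and 13.7 and 12.1 CPM. All 4 treated libraries lay above both fibroblast libraries, which is what the gene was chosen by. The ratio of counts to fibroblasts, scaled to library size, was 63.5 in early cells and 58 in late cells. From early to late cells the log2 fold change was -0.11 ± 0.34 (edgeR adjusted p = 0.948), and the late libraries lay just below the early ones. The choice used the counts of these same treated libraries, so this difference is not independent of it.

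Lhx6 was thus at a like level in the libraries that differed in fibroblast matrix genes and in the one with heart muscle transcripts. Of its neighbours, Rbm18, at 10.7 kb, was at 41.4 and 50.1 CPM in fibroblasts and between 39.9 and 45.1 CPM in treated libraries (edgeR adjusted p = 0.771 and 0.657), and Morn5, at 2.24 kb, had 3 counts or fewer in each library. Tmem176a and Tmem176b, adjacent membrane protein genes, and Hid1 had the patterns most like that of Lhx6, with root mean square differences of 0.15, 0.20 and 0.37. Tmem176a was at 3.59 and 3.41 CPM in fibroblasts, 186 and 165 CPM in early cells and 214 and 138 CPM in late cells.

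Of 20 other LIM homeobox genes and their cofactors, 15 passed the filter. Called as higher in early cells than in fibroblasts was 1, beside 0.695% of all tested genes. In the comparisons of late cells with fibroblasts and with early cells 0 were called, beside 1.42% and 0% of all tested genes. Isl2, a motor neuron factor, rose in early cells, from 0.0671 and 0.0882 CPM in fibroblasts to 3.65 and 3.64 CPM, and was at 3.33 and 1.32 CPM in late cells. Its log2 fold change was 5.47 ± 0.79 in early cells (edgeR adjusted p = 0.0484) and 4.82 ± 0.78 in late cells (0.0556). Isl2 passed the filter only through its treated libraries, so its call is not independent of the higher counts there. The list's median log2 fold change was 1.11 in early and 1.08 in late cells, with 10 and 11 of 15 genes above fibroblasts. Isl1, the factor of second heart field progenitors and named after its values were seen, was at 0.101 and 0.0294 CPM in fibroblasts, 16.4 and 9.7 CPM in early cells and 6.34 and 0.758 CPM in late cells (edgeR adjusted p = 0.064 and 0.076 against fibroblasts). Isl1 too passed the filter only through treated libraries. Lmo1, named in the same way, was lower in treated cells. It was at 17.9 and 7.56 CPM in fibroblasts, 0.134 and 0.0946 CPM in early cells and 0.25 and 0.955 CPM in late cells (edgeR adjusted p = 0.0528 and 0.0656).

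The tissues in which Lhx6 is best known were followed by their own lists. Of 16 homeobox genes of jaw and facial mesenchyme, 14 passed the filter. Against fibroblasts 6 were higher and 8 lower in early cells, and 7 were higher and 7 lower in late cells. Called as higher were 0 in both, and called as lower were 2 in early and 1 in late cells, beside 0.833% and 0.779% of all tested genes. Alx4, a factor of craniofacial and limb mesenchyme, fell in early and in late cells, from 79.9 and 58.6 CPM in fibroblasts to 0.312 and 0.0946 CPM and to 1.92 and 0.618 CPM, with log2 fold changes of -8.37 ± 0.89 (edgeR adjusted p = 0.0349) and -5.78 ± 0.77 (0.0471). Lhx8, the paralog that works with Lhx6 in teeth, had at most 3 counts in any library.

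Of 11 genes of forebrain interneurons, 7 passed the filter and 0 were called in any comparison. The shares over all tested genes were 1.53% and 1.42% in early and late cells against fibroblasts, and 0% between late and early cells. Among those below the filter, Sst, the peptide of a class of these interneurons, had at most 2 counts in a library, and the genes of the GABA-making enzymes had at most 4 (Gad2) and 31 (Gad1). Nkx2-1, the factor that activates Lhx6 in the ventral forebrain, had 0 counts in both fibroblast libraries, 161 and 67 in early cells and 118 and 27 in late cells (edgeR adjusted p = 0.0712 and 0.0737), and was named after its values were seen. Nkx2-1 passed the filter only through its treated libraries, so these tests are not independent of the higher counts there. Dlx1, on both this list and that of the jaw, was at 2.28 and 3.12 CPM in fibroblasts and 8.03 to 13.4 CPM in treated libraries (adjusted p = 0.0595 and 0.0709).

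Meis1 (ENSMUSG00000020160, chr11:18879817-19018985, minus strand), a TALE-class partner of Hox and Pbx proteins known for holding back the division of heart muscle cells after birth, was higher in all 4 treated libraries than in both fibroblast libraries. It was at 15 and 9.56 CPM in fibroblasts, 30.2 and 82.1 CPM in early cells and 37.1 and 34.2 CPM in late cells, from 447 and 325, 677 and 1735, and 890 and 1219 counts. Early replicate 2 held the highest level and the late libraries lay between the early ones. The log2 fold change against fibroblasts was 2.19 ± 0.54 in early cells (edgeR adjusted p = 0.0803) and 1.54 ± 0.53 in late cells (0.123), and it was -0.65 ± 0.52 from early to late cells (0.72). DESeq2 called the first 2 differences (adjusted p = 0.00187 and 0.0363), edgeR with no filter called the first (0.0111), and the highest adjusted p over the alternatives was 0.396 and 0.466. The last difference changed sign without early replicate 2 (0.18).

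Meis2 (ENSMUSG00000027210, chr2:115863064-116065839, minus strand), the paralog with roles in the palate, the limb and the outflow tract of the heart, was also higher in all 4 treated libraries than in both fibroblast libraries. It was at 27.3 and 39.1 CPM in fibroblasts, 64.5 and 157 CPM in early cells and 77.7 and 46.7 CPM in late cells. Early replicate 2 again held the highest level, and late replicate 2 lay below both early libraries. The log2 fold change was 1.74 ± 0.52 in early cells (edgeR adjusted p = 0.105) and 0.90 ± 0.51 in late cells (0.265) against fibroblasts, and -0.83 ± 0.51 from early to late cells (0.624). DESeq2 called the early difference (adjusted p = 0.0161, and 0.41 at most over the alternatives).

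Meis1 and Meis2 were the closest pair among the 8 tested members, with a root mean square difference of 0.48 between their centred log2 CPM over the 6 libraries, against 6.01 for Irx1 and Pitx1, the most distant pair. Irx5 and Meis2 came next at 0.60, both being highest in early replicate 2. Per kilobase Meis2 exceeded Meis1 in every library, by 1.19-fold to 3.58-fold, the latter in fibroblast replicate 2. Among the genes most like Meis1 were Kazald1 and Slc45a3 (0.24 and 0.27). Ephb3, an ephrin receptor, Pcdhb19 and Clec2d were most like Meis2 (0.16, 0.16 and 0.21). Ephb3 was at 16.4 and 22.9 CPM in fibroblasts, 28.2 and 87.6 CPM in early cells and 43.3 and 27.3 CPM in late cells. The antisense genes within Meis1, Gm16140 and Gm16141, had at most 5 and 10 counts in a library, against 325 or more for Meis1.

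Of 11 TALE-class relatives and partners of the Meis and Irx proteins, 10 passed the filter. Called as lower than in fibroblasts was 1 in early and 1 in late cells, beside 0.833% and 0.779% of all tested genes. Mkx, the Mohawk homeobox gene of tendon, fell in early cells and in late cells, from 12.4 and 12.8 CPM in fibroblasts to 0.534 and 0.71 CPM and to 1.21 and 0.758 CPM. Its log2 fold changes were -4.33 ± 0.55 (edgeR adjusted p = 0.0412) and -3.68 ± 0.53 (0.0493). Meis3, the third Meis gene, was at 13.7 to 28.6 CPM in all 6 libraries. Pknox2, a relative of the Meis genes named with Meis3 after values were seen, was at 3.42 and 1.06 CPM in fibroblasts and 20.4 to 44.1 CPM in treated libraries (edgeR adjusted p = 0.0566 and 0.0643).

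Cell cycle inhibitors and hypoxia factors linked to Meis1 formed a list of 6, all tested. Cdkn1a, the inhibitor p21, is known to be activated by Meis1 in heart muscle. It fell in early cells, from 622 and 609 CPM to 148 and 127 CPM (log2 fold change -2.16 ± 0.31, edgeR adjusted p = 0.0484), and was at 183 and 112 CPM in late cells (0.0523). Cdkn2b, another inhibitor, was at 211 and 233 CPM in fibroblasts, 8.37 and 15.4 CPM in early cells and 10.9 and 3.57 CPM in late cells, and fell in late cells (log2 fold change -4.95 ± 0.67, adjusted p = 0.0485, against 0.0526 in early cells). Cdkn2c, a further inhibitor named after its values were seen, was at 14.2 and 8.06 CPM in fibroblasts and 42.1 to 74 CPM in treated libraries (edgeR adjusted p = 0.0566 and 0.0656). Cdkn2a, named in the same way, was at 569 and 568 CPM in fibroblasts and 10.9 to 104 CPM in treated libraries (edgeR adjusted p = 0.0724 and 0.0508). Of the 6 genes, 2 were higher and 4 lower than in fibroblasts in early cells, and 3 were higher and 3 lower in late cells. These counts include the hypoxia factors Hif1a and Epas1, which did not pass the threshold. Hif1a was higher in both (log2 fold change 1.2 and 0.666). Epas1 was lower in early cells (-2.06) and higher in late cells (1.54), with 18.1 and 138 CPM in the late libraries.

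The order of the 9 genes by mean level per kilobase of exon differed between the groups. In fibroblasts Irx1 (29.1 CPM per kb) and Irx2 (13.8) came first with no overlap between them, followed by Irx5, Irx3 and Meis2 (3.34 to 2.76), whose neighbours overlapped, then Meis1 (1.17), with the means of Lhx6, Pitx1 and Irx4 at 0.0459 or less. In early cells the order of the means was Meis2 (9.18), Meis1 (5.33), Irx5 (4.41), Lhx6 (2.9), Irx2 (1.56), Pitx1 (1.06) and Irx3 (0.948), in which each overlapped the next, then Irx1 (0.0622) and Irx4 (0). Irx2, from 0 in early replicate 1 to 3.13 in early replicate 2, also overlapped Irx1. In late cells the order of the means was Irx3 (7.81), Pitx1 (5.9), Meis2 (5.16), Irx4 (4.71), Meis1 (3.39), Irx5 (2.71), Lhx6 (2.68), Irx2 (1.23) and Irx1 (1.1). There Pitx1 ran from 2.51 to 9.29 and Irx4 from 0.0799 to 9.35, so that both overlapped Irx5 and Lhx6, and Irx4 in late replicate 1 lay below Irx1 and Irx2. The places of Pitx1 and Irx4 in late cells thus rest on the mean of unlike libraries.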

How the data were processed

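RNA sequencing of poly(A)-selected RNA (PureLink purification, per the labels' protocols) covered 6 libraries. The authors deposited raw counts per Ensembl gene, not normalized. Trimmomatic 0.36, STAR 2.5.2b, featureCounts, Subread 1.5.2 and the build GRCm38 are named, per the submitters' processing notes. Not given in the sources used here are the strand setting, the annotation release and how multi-mapping reads were handled, so genes with antisense partners or close copies carry uncertain counts. Early and late columns were matched to samples through their abbreviated names, and an error there would swap these groups.

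In R 4.3.3 with edgeR 4.0.16 (limma 3.58.1), genes were kept by filterByExpr (minimum count 10), scaled by TMM and tested with a quasi-likelihood fit of the 3 group means over all 6 libraries. The fit was robust, with no block, 3 residual degrees of freedom and Benjamini-Hochberg adjustment over 16688 genes. The common biological coefficient of variation was 48.6%. A gene rose, fell or was called at an adjusted p under 0.05. Values per library are CPM after TMM. Total counts of 20172874 to 40122999 set a 3-count floor of 0.0842 to 0.142 CPM. The script was tested on simulated data. Alternatives were DESeq2 1.42.0, RLE scaling, no filter, a replicate block, only the 4 libraries compared, and leaving out each library. Symbols, positions and exon lengths came from GENCODE M21, and promoter windows from RefSeq.

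Members and lists were chosen with earlier results of these data known. Named genes were the 9 members, called genes of the related lists, the 3 genes with the smallest root mean square difference in centred log2 CPM (prior count 2) to each tested member among genes with a mean log2 CPM of at least 0, and genome neighbours (nearest protein-coding on each side, or overlapping or starting within 5 kb). Other listed genes named without passing the test were chosen after their values were seen. A few genes meeting these criteria are not reported here.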

Additional observations from a re-analysis of the deposited data

How the results depend on the processing

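RLE scaling changed no call of a member in any comparison, with 277, 256 and 0 genes called against 255, 237 and 0 for early against fibroblast, late against fibroblast and late against early. Other settings moved the counts of calls widely, and the cause was not tested. With no low-count filter 2337, 2495 and 276 genes and 3, 1 and 1 members were called in these comparisons, and with DESeq2 4201, 4683 and 930 genes and 4, 3 and 2 members. With only the 4 libraries compared 1469 and 1016 genes were called against fibroblasts, and 1 member between late cells and fibroblasts. Leaving out 1 library at a time gave 0 to 823, 0 to 1058 and 0 to 602 genes and 0 to 1, 0 to 2 and 0 to 1 members. The 602 genes between late and early cells came without late replicate 1. Replicate numbers are shared between groups in the labels, but deviations of same-numbered libraries correlated at 0.121, 0.238 and 0.0859, not all above 0.1, so they were not taken as pairs. With the replicate block 26 and 9 genes were called against fibroblasts and 0 members in early cells, where Irx1 had an edgeR adjusted p of 0.0562, and the Irx2 log2 fold change from early to late cells turned to 0.52. Leaving out 1 library changed the sign of 4 log2 fold changes that had not passed the threshold. Their ranges were -0.25 to 0.87 for Irx5 in early cells and -0.68 to 0.16 in late cells against fibroblasts, and -1.39 to 9.85 for Irx2 and -1.23 to 0.18 for Meis1 from early to late cells. Mean CPM by total counts in place of TMM moved by less than 1 SD of the 2 libraries for each gene and group except Lhx6 in early cells (14.5 against 13.9 CPM). With 2 libraries a group and 3 residual degrees of freedom, a difference that missed the threshold is not shown to be absent, and levels of Irx4 below 3 counts a library were not detectable at this depth.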
